A study of Mus musculus with 10 samples.

Results

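H4K5ac, histone H4 acetylated at lysine 5, was compared between round spermatids and spermatocytes on chromosomes 1 to 19. The members were all islands (stretches of the genome enriched for ChIP reads over input) on these chromosomes in the H4K5ac list of each stage. They numbered 43505 in spermatocytes and 36549 in round spermatids, 80054 of the 301484 islands in the 8 lists of the series. Mouse testis cells of the strain Oncins France 1 had been fractionated by stage, and mononucleosomes were precipitated with a rabbit H4K5ac antibody. The labels give no genotype, treatment, age or number of animals. Each stage had 1 H4K5ac library and 1 input library, so no difference could be set against replicates and no test between the stages was possible. Intervals are 95%. Those of a share or a fold cover counting error. Those of a median give its uncertainty with blocks or islands taken as independent, not the range of single ones. None covers animals or precipitations. Islands were not assigned to genes, and the purity of the cell fractions was not checked against marker genes.

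Acetylation of the tail of histone H4 neutralises the charge of lysines, loosens the contact of the tail with DNA and neighbouring nucleosomes, and marks active promoters and enhancers. Spermatocytes pass through meiosis, and the round spermatids that follow are haploid and still transcribe their genes. BRDT, a testis protein with bromodomains, binds H4 acetylated at lysines 5 and 8. Later, as spermatids elongate, H4 becomes acetylated throughout the nucleus before histones give way to transition proteins and protamines. Round spermatids stand before that step.

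The H4K5ac list of round spermatids had fewer, wider and more evenly enriched islands than that of spermatocytes. Islands under 1 kb were 3.90% of the spermatocyte and 0.375% of the round spermatid list. Library totals were not analysed, and the settings used to call islands are not given. Their part in the number, width and merging of islands was not tested. Islands of spermatocytes covered 149 Mb and those of round spermatids 182 Mb, of which 110 Mb was common to both. The common bases were 74.3% of the spermatocyte bases and 60.6% of the round spermatid bases. The median island was 2600 bp wide in spermatocytes and 3600 bp wide in round spermatids. Spermatocyte islands held 8066787 ChIP and 2179548 input reads, and round spermatid islands 8275605 ChIP and 3272495 input reads. The fold of an island over input is its ChIP reads divided by its input reads and multiplied by a scaling factor of the list, 1.69 for spermatocytes and 2.12 for round spermatids. Spermatocyte islands had a median fold of 5.46 (5.42 to 5.51), and round spermatid islands one of 4.54 (4.51 to 4.56). In a population of cells, a mark on fewer cells and less mark per cell cannot be told apart.

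Most islands were found in both stages. Of spermatocyte islands, 63.1% (62.7 to 63.6) shared at least 1 bp with a round spermatid island, and of round spermatid islands 70.7% (70.2 to 71.2) shared at least 1 bp with a spermatocyte island. This order of the stages turned when the spermatocyte list was cut to its 36549 islands of highest fold, the length of the other list. Then 63.1% of spermatocyte and 60.4% of round spermatid islands were shared. At equal numbers the shares can differ only through the number of islands per shared block. In that setting 1122 blocks held several spermatocyte islands under 1 round spermatid island, and 245 the reverse. Islands of the 2 lists that touched were joined into blocks, 52226 in all. A block was shared when it held islands of both stages, as 25482 blocks did. The remaining blocks were single islands of spermatocytes alone (16035) or of round spermatids alone (10709). An island of 1 stage alone was not called in the other list, which is not a measured absence of the mark there.

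Islands of 1 stage alone were narrow and held few reads. Spermatocyte-only islands had a median width of 1600 bp, against 3400 bp for shared ones, and a median of 64 ChIP reads against 183.5. They were 36.9% of the spermatocyte islands but held 16.0% of the ChIP reads. Round-spermatid-only islands had a median width of 2400 bp, against 4600 bp for shared ones, with 71 ChIP reads against 187. They were 29.3% of the list and held 10.3% of its ChIP reads. In bases the groups were nearly equal: spermatocyte-only islands covered 29.0 Mb and round-spermatid-only islands 28.9 Mb. Input moved with the class: the median was 15.0 input reads per kb in spermatocyte-only against 13.8 in shared islands, and 18.5 against 16.8 in round spermatids, and its part in the calls was not tested.

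**Figure D1:**
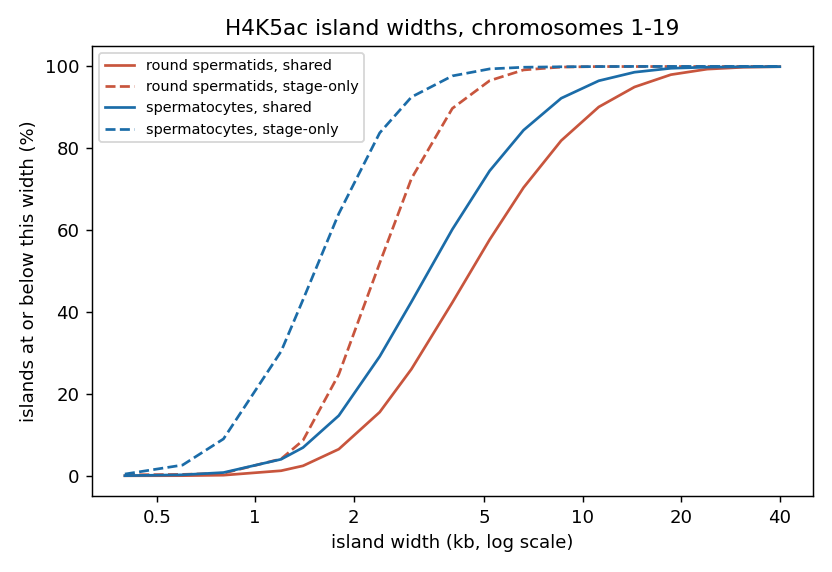
Cumulative share of H4K5ac islands (vertical axis, %) by island width (horizontal axis, kb, log scale), for shared (solid) and stage-only (dashed) islands of spermatocytes (blue) and round spermatids (red). Round spermatid islands lay to the right of spermatocyte islands in both classes, with medians of 4600 against 3400 bp for shared and 2400 against 1600 bp for stage-only islands.

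Wide islands were nearly all shared, and narrow ones mostly were not. A wide island meets the rule of 1 bp more easily, and the share expected from width alone was not computed. Among islands of 5 to 10 kb, 98.0% in spermatocytes and 94.3% in round spermatids were shared. Among those of 1 to 2 kb, 30.2% and 38.8% were. The narrowest quintile of the spermatocyte list was shared in 21.7% (20.9 to 22.6) and the widest in 98.0% (97.6 to 98.2). In round spermatids these values were 40.5% (39.4 to 41.6) and 98.97% (98.7 to 99.2).

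Fold behaved differently in the stages. In round spermatids the shared percent rose from 41.0% in the quintile of lowest fold to 97.8% in that of highest fold. In spermatocytes the lowest quintile was shared in 62.4% (61.4 to 63.5), the middle one in 49.3% (48.2 to 50.4) and the highest in 84.8% (84.0 to 85.5). The spermatocyte islands of middle fold, 4.66 to 6.50, were thus the ones least often shared. Within width classes the middle quintile was also the lowest below 5 kb (under 2 kb by little, 21.9% against 22.0% in the next quintile), and not at 5 kb or more. Among spermatocyte islands of 2 to 5 kb, 72.2% (70.9 to 73.4) were shared in the lowest quintile of fold, 60.9% (59.3 to 62.5) in the middle one and 89.8% (88.9 to 90.6) in the highest.

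**Figure D2:**
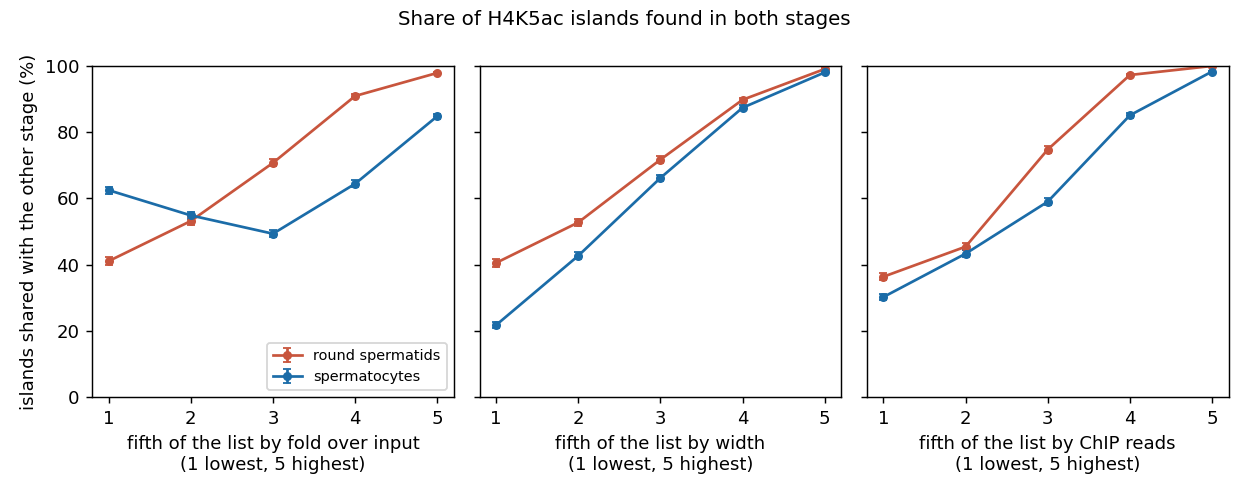
Percent of H4K5ac islands shared with the other stage (vertical axis) in quintiles of each list by fold, width and ChIP reads (horizontal axes, 1 lowest to 5 highest), with exact 95% intervals. All lines rise except that of spermatocytes by fold, which starts at 62.4%, falls to 49.3% and ends at 84.8%.

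The strongest islands called in spermatocytes alone were long and also carried the other 3 H4 marks of the series there (H4K5bu, H4K8ac and H4K8bu, where bu is butyrylation). On chromosome 6 from 87910801 to 87921200 (mm9), 663 ChIP reads over 125 input reads gave a fold of 8.95 (7.39 to 10.9). The nearest round spermatid H4K5ac island lay 6.2 kb away, and 2 of the other marks were called at this place in round spermatids. On chromosome 4 from 51863801 to 51871600, 637 reads over 93 gave a fold of 11.6 (9.29 to 14.5). On chromosome 3 from 78105401 to 78115800, 630 reads over 123 gave one of 8.65 (7.12 to 10.6). At both of these no other mark was called in round spermatids, and the nearest round spermatid H4K5ac island lay 9.8 kb away.

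The strongest islands called in round spermatids alone were smaller in reads. The first, on chromosome 14 from 80648801 to 80653200, had 273 ChIP reads over 79 input reads and a fold of 7.31 (5.67 to 9.52). On chromosome 12 from 33854601 to 33861600 the fold was 4.88 (3.89 to 6.14), whereas the island of chromosome 2 from 77401401 to 77406800 had 4.57 (3.64 to 5.76). All 3 held the other 3 marks in round spermatids, and each also held an island of 1 or 2 of them in spermatocytes. Absence of an H4K5ac island was therefore not absence of every acylation mark at these places. These 6 islands had the most reads among stage-only islands with a fold at or above the median of their list.

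Most islands of 1 stage alone were not beside any island of the other list. The median distance to the nearest one was 19400 bp for spermatocyte-only and 25800 bp for round-spermatid-only islands. Of them, 5.05% and 4.56% had a neighbour under 2 kb away in the other list. Of round-spermatid-only islands, 32.4% lay over 50 kb from any spermatocyte island. The corresponding share of spermatocyte-only islands was 21.3%.

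Shared blocks were mostly pairs. Of 25482 shared blocks, 23469 (92.1%) held 1 island of each stage, and in these the round spermatid island was usually the wider. Median widths were 3400 bp and 4400 bp, and the median ratio of widths was 1.27, or 0.34 (0.33 to 0.35) on the log2 scale. The round spermatid island was wider in 72.4% of pairs, equal in 5.02% and narrower in 22.5%. It was at least 2 times as wide in 14.3% and at most 0.5 times as wide in 1.70%. In 58.9% (58.2 to 59.5) of pairs the spermatocyte island lay wholly inside that of round spermatids, and in 15.5% (15.0 to 16.0) the reverse held. The edges were moved outward in round spermatids by a median of 400 bp on the left and 400 bp on the right, on a grid of 200 bp. The median shift was thus the same on both sides. As a ratio, which is divided by the same spermatocyte width that sets the classes, the widening was greatest for narrow islands. The median log2 ratio of widths was 1.46 for the 196 spermatocyte islands under 1 kb, 0.87 for spermatocyte islands of 1 to 2 kb and 0.19 for those of 10 kb or more. In bases the order differed: the median widths were 800 and 2200 bp under 1 kb, 3200 and 4000 bp at 2 to 5 kb, and 12200 and 14600 bp at 10 kb or more.

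Merging of islands was far more frequent than splitting. In 1682 blocks (6.60% of shared blocks) 2 or more spermatocyte islands lay under 1 round spermatid island. In 241 blocks (0.946%) 1 spermatocyte island lay over 2 or more round spermatid islands. A further 90 blocks held several islands of both stages. Of the merging blocks, 1515 joined 2 spermatocyte islands, 144 joined 3, 19 joined 4, 3 joined 5 and 1 joined 7. The median merging block held 8800 bp of spermatocyte islands and 12000 bp of round spermatid island. The fold of merging blocks was nearly level between the stages, with medians of 6.43 and 6.11 and a median log2 ratio of -0.06 (-0.10 to -0.02). The round spermatid fold takes in the gaps between the spermatocyte islands, so the folds of the stages cover unlike stretches. In splitting blocks the medians were 8.54 and 5.30, and the median log2 ratio was -0.67 (-0.74 to -0.59). Among the 50% of islands with the highest fold in either stage, merging blocks numbered 362 and splitting blocks 90.

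Merging can also be counted by the gaps between neighbouring islands, which restates the blocks above by gap length and is no second observation of them. Of spermatocyte gaps of 0.8 to 1.2 kb, 59.9% (57.5 to 62.4) were covered from end to end by 1 round spermatid island. Of round spermatid gaps of that size, 20.4% (18.1 to 22.7) were covered by 1 spermatocyte island. For gaps of 2 to 3 kb the values were 20.7% (18.5 to 23.0) and 2.46% (1.51 to 3.78). In all, 1988 spermatocyte gaps were bridged, adding 3.47 Mb, and 358 round spermatid gaps, adding 0.453 Mb. For comparison, the islands of one-to-one pairs covered 98.7 Mb in spermatocytes and 127 Mb in round spermatids.

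**Figure D3:**
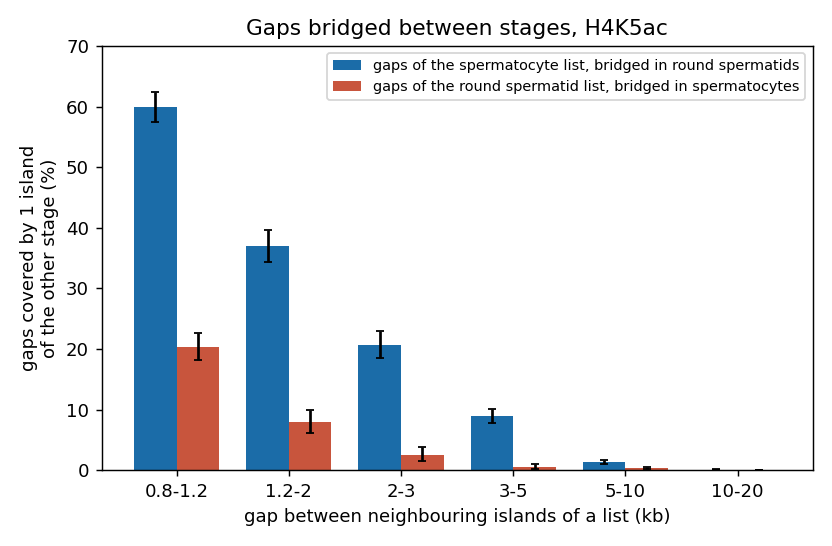
Percent of gaps between neighbouring H4K5ac islands of a list that 1 island of the other stage covered (vertical axis), by gap length (horizontal axis, kb), with exact 95% intervals. Spermatocyte gaps (blue) were bridged more often in every class up to 10 kb, for example 59.9% against 20.4% at 0.8 to 1.2 kb.

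The block with most merged islands lay on chromosome 2 from 83793801 to 83834600, where 7 spermatocyte islands of 19.6 kb in all lay under 1 round spermatid island of 40.8 kb. The spermatocyte fold of 4.08 (3.59 to 4.65) and the round spermatid fold of 4.05 (3.70 to 4.43) had overlapping intervals, while the extent differed. On chromosome 6 from 122705601 to 122755600, 5 islands of 37.4 kb were joined into 49.8 kb, with folds of 7.60 (6.79 to 8.52) and 8.30 (7.67 to 9.0). On chromosome 9 from 106445401 to 106475400, 5 islands of 13.4 kb were joined into 30.0 kb, with folds of 4.09 (3.48 to 4.83) and 5.22 (4.71 to 5.78).

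The blocks with most splitting held long spermatocyte islands with a fold above the median. On chromosome 15 from 59076801 to 59156800, 1 spermatocyte island of 78.0 kb had a fold of 11.9 (11.1 to 12.7), and its 5 round spermatid islands of 64.4 kb had one of 6.61 (6.18 to 7.08). On chromosome 7 from 77021801 to 77096200, an island of 74.4 kb and fold 13.1 (12.2 to 14.0) faced 5 islands of 43.4 kb and fold 5.69 (5.24 to 6.19). On chromosome 9 from 67539401 to 67615800, an island of 76.4 kb and fold 15.6 (14.6 to 16.7) faced 4 islands of 64.4 kb and fold 7.09 (6.64 to 7.58). A further block of this length did not split. On chromosome 17 an island of 61.6 kb in spermatocytes with a fold of 15.1 was one of 62.6 kb in round spermatids, from 27425601 to 27488200, with a fold of 5.47 (5.16 to 5.81).

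Some of the widest islands of both lists instead had a low fold, on many input reads. On chromosome 11 from 3018401 to 3107200, 15137 ChIP reads over 25236 input reads gave a fold of 1.27 (1.24 to 1.30) in round spermatids. The spermatocyte island there had a fold of 1.13 (1.10 to 1.15). On chromosome 8 an island of 81.2 kb from 19679601 to 19760800 had a fold of 1.11 (1.07 to 1.14) in spermatocytes, and its round spermatid island of 60.2 kb had one of 1.82. An island of 121 kb from 19914401 to 20035400, called in round spermatids alone, had one of 1.27 (1.23 to 1.30). Islands with a fold under 2 were 1.43% of the spermatocyte and 1.71% of the round spermatid list.

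In shared blocks the fold was on balance lower in round spermatids, and its spread was narrower. The median was 6.31 in spermatocytes and 5.35 in round spermatids, with a median log2 ratio of -0.24 (-0.26 to -0.23). Single blocks varied far more, with log2 ratios of -0.83 to 0.39 in the middle 50%. The fold was lower in 60.0% of shared blocks. In lists of equal length the median log2 ratio was -0.42, and among the 50% of islands with the highest fold it was -0.55. Equal length left out only spermatocyte islands, those of lowest fold, which by itself raises the spermatocyte fold and lowers the ratio. The 50% cut also selects on fold, so neither value is a separate measure of a lower fold. The folds of the middle 50% of blocks spanned 1.35 on the log2 scale in spermatocytes and 0.82 in round spermatids. Taken apart, unscaled ChIP reads per kb had a median log2 ratio of -0.26 and unscaled input reads per kb one of 0.29, and neither is scaled to its library total. Past 2-fold, 1315 of 25482 shared blocks (5.16%) were higher in round spermatids and 4715 (18.5%) were lower. No test stands behind these counts, since each stage had 1 library. In pairs the ratio differed with the change in width. Where the round spermatid island was wider (17001 pairs) the median log2 ratio was -0.07, and the fold was lower in 52.7%. At equal width (1178 pairs) the median was -0.53. Where the round spermatid island was narrower (5290 pairs) it was -0.64, and the fold was lower in 81.8%. Where widths differ, the folds of the stages cover unlike stretches.

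The distribution of folds had a different shape in the stages. In shared blocks the spermatocyte fold had 2 humps, at a log2 fold of 2.00 to 2.25 (2449 blocks) and of 3.00 to 3.25 (2763 blocks), with a dip at 2.50 to 2.75 (2071 blocks). The round spermatid fold of the same blocks had 1 hump, at 2.50 to 2.75 (4158 blocks). Stage-only islands had 1 hump in each list, at 2.00 to 2.25 for spermatocyte-only and 1.75 to 2.00 for round-spermatid-only islands. Bins of 0.25 were the one width used to count humps. The 2 humps of shared blocks in spermatocytes also appeared for H4K5bu, H4K8ac and H4K8bu, each with 1 hump in round spermatids, although for H4K5bu the dip was shallow (2030 blocks beside a hump of 2079). The lists of a stage share 1 input library, so these are not independent observations.

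**Figure D4:**
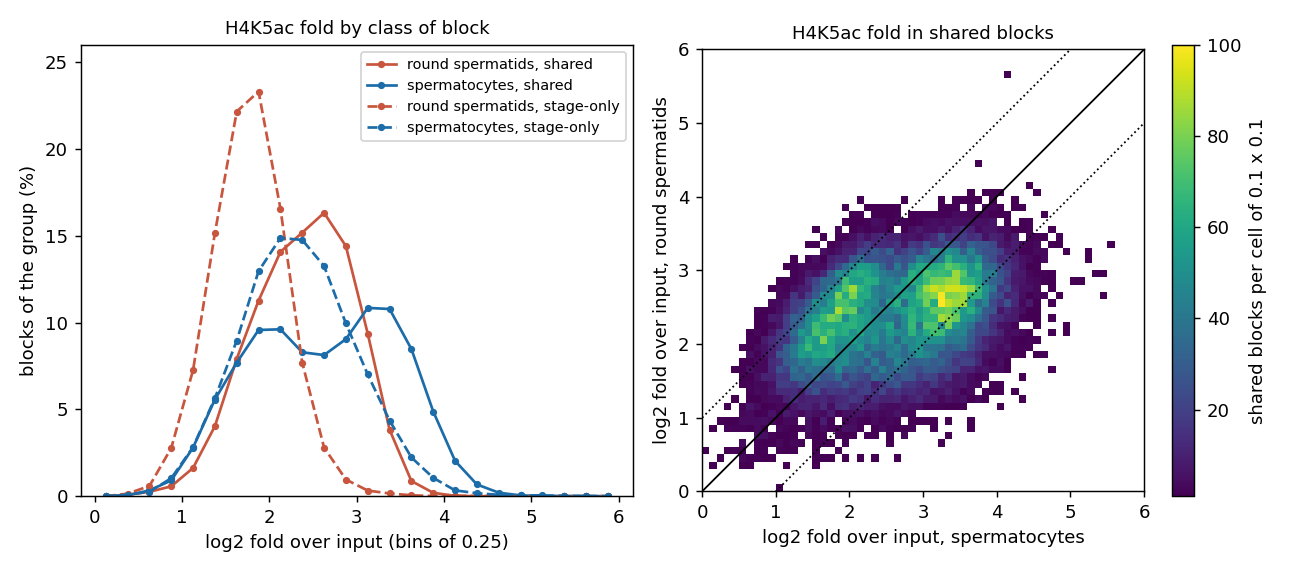
Left, distribution of the log2 fold over input (horizontal axis, bins of 0.25) as a percent of the blocks of each group (vertical axis) for shared (solid) and stage-only (dashed) blocks. Right, number of shared blocks (colour) by log2 fold in spermatocytes (horizontal) and round spermatids (vertical), with the line of equal folds (solid) and 2-fold lines (dotted). The shared blocks have 2 humps along the spermatocyte axis, at 2.00 to 2.25 and 3.00 to 3.25, and 1 along the round spermatid axis.

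A limit at the middle of the dip, a spermatocyte fold of 6.17 chosen after the distribution was seen, put 12487 blocks below and 12995 above. It describes ranges, and 2071 blocks lay in the dip itself. The median spermatocyte fold was 3.83 below and 9.78 above, as the limit dictates. In round spermatids the medians lay closer together, 4.63 (middle 50%, 3.54 to 6.15) below and 6.08 (4.60 to 7.65) above, and the ranges overlapped widely. The limit was set on the spermatocyte fold, so closer medians in the other stage follow in part from the split. Blocks above the limit were longer in spermatocytes, 4.2 kb against 3.0 kb, and of like length in round spermatids, 4.8 kb against 4.6 kb. In pairs, the widening was 0.16 (log2) above and 0.53 below. All 3 other marks were called in spermatocytes in 97.3% of the blocks above and 55.0% of those below, whereas in round spermatids they were called in 80.6% and 77.5%. Input moved with this limit: the median was 11.7 input reads per kb above and 16.1 below in spermatocytes, and 15.8 and 18 in round spermatids. ChIP reads per kb in spermatocytes were 68.3 above and 35.4 below, so ChIP and input reads moved in opposite directions. The part of the input in the pattern was not tested.

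Blocks past 2-fold came from opposite ends of the spermatocyte range. The 4715 lower blocks had a median fold of 11.2 in spermatocytes and 4.28 in round spermatids. The 1315 higher blocks had one of 3.06 and 7.04. These values follow in part from the selection itself, since the ratio is made of them. The other marks were read in the same blocks. Where H4K5ac was lower, the fold of H4K5bu was lower in 92.3% of 4175 blocks with islands of it in both stages, that of H4K8ac in 98.5% of 3075 and that of H4K8bu in 99.2% of 3783. Their median log2 ratios were -0.63, -1.08 and -1.14. In shared blocks not past 2-fold for H4K5ac, these marks were lower in 45.5%, 68.9% and 59.3%. Where H4K5ac was higher, their folds were higher in 99.6% of 797, 97.2% of 749 and 97.5% of 1131 blocks, with median ratios of 1.08, 0.65 and 0.77. All marks of a stage were set against the same input library, and its part in this common direction was not tested.

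Among pairs with at least 100 ChIP and 20 input reads in each stage, the lowest ratio was on chromosome 4 from 116974201 to 116978000. There 302 ChIP reads over 21 input reads in spermatocytes gave a fold of 24.3 (15.6 to 39.8), and 106 over 64 in round spermatids gave 3.51 (2.55 to 4.86). The spermatocyte library thus had more ChIP and fewer input reads there, on an island 0.44 (log2) narrower. The next were those of chromosome 9 from 59135201 to 59143400, with folds of 26.4 (17.3 to 42.1) and 4.37 (3.56 to 5.39), and of chromosome 4 from 150167601 to 150173200, with 13.3 (9.16 to 20.1) and 2.38 (1.81 to 3.12). In these latter blocks the round spermatid island was wider by 1.27 and 1.32 on the log2 scale, so the folds of the stages cover unlike stretches.

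The highest ratio was on chromosome 4 from 90766001 to 90768600. The spermatocyte fold was 2.86 (2.07 to 3.98) and the round spermatid fold 11.7 (8.02 to 17.5). Its ChIP reads were 105 and 182, and its input reads 62 and 33. On chromosome 4 from 7735001 to 7739000 the islands had the same width, 3.6 kb, and folds of 2.40 (1.77 to 3.26) and 9.05 (6.71 to 12.4). On chromosome 18 from 18519801 to 18523800 the folds were 3.99 (2.78 to 5.81) and 14.9 (10.6 to 21.3), and the input reads were nearly equal, 44 and 40. In these 3 blocks the intervals of the stages did not overlap, nor did they in the 3 with the lowest ratio. The intervals are not adjusted for the choice of extremes.

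The most enriched places overlapped in part. Of the 10% of shared blocks with the highest spermatocyte fold (at least 12.8), 600 blocks, or 23.5%, were among the 10% with the highest round spermatid fold (at least 8.52). Over all shared blocks, the folds of the stages had a Spearman's rho of 0.39, a description of blocks that share their libraries. Blocks that were in both had a median of 4.0 kb in spermatocytes and 4.4 kb in round spermatids.

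Along the chromosomes, stage-only blocks of a kind followed each other more often than their overall share. After a spermatocyte-only block the next block was spermatocyte-only in 36.6% (35.9 to 37.4), where 30.7% of all blocks were of that kind. After a round-spermatid-only block the next was round-spermatid-only in 32.3% (31.4 to 33.2), where 20.5% of all blocks were. Most runs were short: 6604 of 10164 runs of spermatocyte-only blocks, and 5268 of 7255 of round-spermatid-only blocks, were single blocks. Runs of 5 or more numbered 252 and 176, and held 8.99% of spermatocyte-only and 10.2% of round-spermatid-only blocks.

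The longest runs of the kinds differed in scale. On chromosome 4 from 88402201 to 88452800, 13 consecutive spermatocyte-only islands lay within 50.6 kb, with 1189 ChIP reads over 329 input reads in all and a fold of 6.10 (5.40 to 6.91). On chromosome 9 from 72518801 to 72799400, 10 such islands within 281 kb had one of 3.78 (3.28 to 4.36). Along chromosome 13 from 66313401 to 66415000, 9 within 102 kb had a fold of 2.33 (2.10 to 2.60). Their input was dense, with 806 ChIP over 583 input reads on 21.4 kb of islands. The first run had its 329 input reads on 29.2 kb. In round spermatids, none of the other 3 marks was called anywhere in the span of the first and second of these runs, and 2 were in the last. The longest runs of round-spermatid-only islands spread much farther. On chromosome 7 from 20984801 to 24669800, 19 islands lay within 3685 kb, and their fold was 3.45 (3.17 to 3.76). On chromosome 3 from 11487801 to 12999200, 17 lay within 1511 kb, with one of 3.57 (3.25 to 3.92). On chromosome 13 from 33411001 to 33877400, 14 lay within 466 kb, with one of 3.33 (3.03 to 3.67). In spermatocytes, 1 other mark was called somewhere in the span of the first and of the second of these runs, and 0 in the last.

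Counts in windows of 1 Mb also differed between the kinds. Of 2425 windows, the fullest in spermatocyte-only blocks was on chromosome 13 from 66000001 to 67000000. It held 40 of them beside 6 round-spermatid-only and 20 shared blocks. The spermatocyte-only run of chromosome 13 given above, with dense input, lies in this window. The next, on chromosome 2 from 71000001 to 72000000, had 25, 0 and 13. The windows with most round-spermatid-only blocks, on chromosome 16 from 19000001 to 20000000 and chromosome 17 from 22000001 to 23000000, had 15 and 14 of them. Counts per window had a variance 5.58 times their mean for shared blocks, 3.03 times for spermatocyte-only and 1.32 times for round-spermatid-only blocks. Spermatocyte-only blocks were thus concentrated in some windows, and round-spermatid-only blocks were spread more evenly. Over the windows, spermatocyte-only blocks went with shared blocks (Spearman's rho 0.61), and round-spermatid-only blocks did not (-0.14). Windows of a chromosome are neighbours and not independent.

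Ranked by H4K5ac blocks, windows with few blocks held mostly stage-only ones, and which stage led depended on the ranking. With windows ranked by round spermatid islands, the sparsest held 32.6% round-spermatid-only and 38.3% spermatocyte-only blocks. Ranked by spermatocyte islands they held 51.9% and 21.4%, and ranked by islands of the other 3 marks 46.4% and 27.1%. A ranking by the islands of 1 stage picks windows with few islands of that stage. In the sparsest quintile of windows ranked by H4K5ac blocks, with at most 12 blocks, 41.6% of blocks were round-spermatid-only, 26.6% spermatocyte-only and 31.9% shared. In the densest quintile, with 31 to 68 blocks, the values were 11.4%, 30.7% and 57.9%. The number of round spermatid islands per spermatocyte island fell from 1.24 in the sparsest to 0.748 in the densest windows.

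The fold of shared blocks followed the same order. From the sparsest to the densest quintile the median log2 ratio of folds was 0.39 (0.32 to 0.43), 0.22, -0.07, -0.25 and -0.44 (-0.46 to -0.42). The median spermatocyte fold rose along this order, 4.18, 4.56, 5.38, 6.34 and 7.57. That of round spermatids stayed between 5.26 and 5.44. Input reads per kb in spermatocyte islands were lower in dense windows, 12.8 against 15.5, and in round spermatid islands 16.5 against 17.2. By ChIP reads alone, scaled to the reads within all islands of a list, the ratio was 0.19 in the sparsest and -0.44 in the densest quintile. That scaling bears on the level of the ratio, through the covered bases of the lists, and not on its order over the quintiles. Because the windows had been ranked by these same lists, they were ranked again by islands of the other 3 marks, which gave 0.42 and -0.44. Ranked by round spermatid islands alone, a part of the same lists, they gave 0.25 and -0.43. At least 1 other mark was called in the same stage in 88.9% of spermatocyte-only and 89.2% of round-spermatid-only blocks. Those calls were made against the same input library, so neither ranking is independent of the first. Blocks above the dip of the spermatocyte fold were 27.0% of shared blocks in the sparsest and 61.3% in the densest windows.

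**Figure D5:**
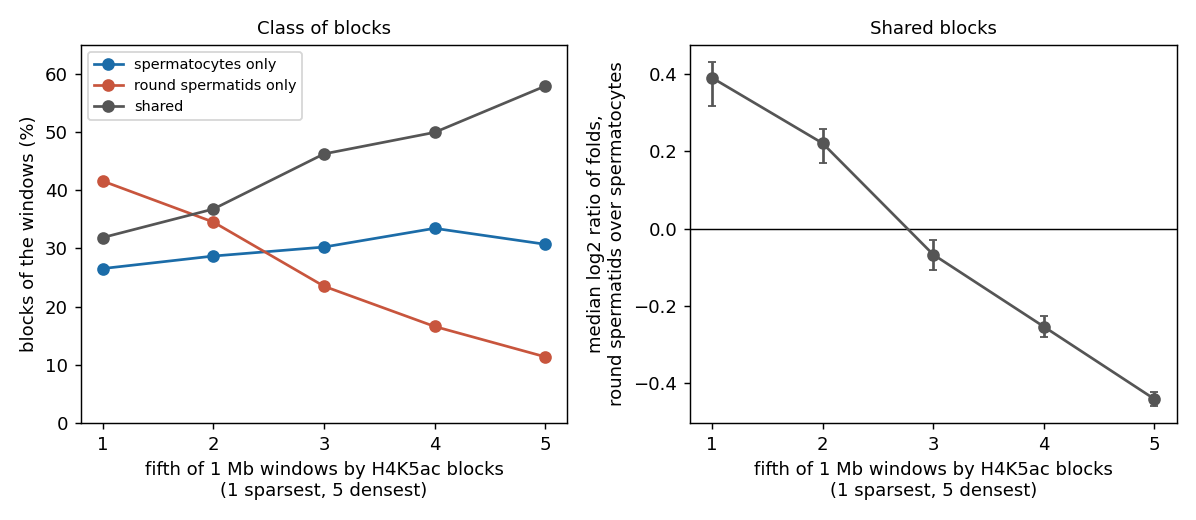
Left, percent of blocks (vertical axis) that were spermatocyte-only, round-spermatid-only or shared in quintiles of 1 Mb windows ranked by their number of H4K5ac blocks (horizontal axis, 1 sparsest to 5 densest). Right, median log2 ratio of folds in shared blocks of the same windows, with 95% intervals of the median. Under this ranking round-spermatid-only blocks fall from 41.6% to 11.4%, and the ratio from 0.39 to -0.44. Ranked by round spermatid islands, the sparsest windows held 32.6%, below the 38.3% of spermatocyte-only blocks. Ranked by islands of the other 3 marks, they held 46.4% against 27.1%.

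Every one of the 19 chromosomes had fewer islands and more covered bases in round spermatids. The ratio of island numbers ran from 0.767 on chromosome 19 to 0.888 on chromosome 3. The ratio of covered bases ran from 1.14 on chromosome 19 to 1.36 on chromosome 14. The median log2 ratio of folds in shared blocks was below 0 on each, from -0.42 on chromosome 19 to -0.04 on chromosome 14. The share of round spermatid islands also found in spermatocytes was lowest on chromosome 3 (63.8%) and highest on chromosome 11 (78.5%), which had the most spermatocyte islands per Mb (23.1). Merging blocks outnumbered splitting blocks on every chromosome, and they were 5.37% to 7.76% of shared blocks.

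The other 3 marks, which the choice of members did not use, were called mostly in the stage that had the H4K5ac island. Of spermatocyte-only H4K5ac blocks, 72.7% held H4K5bu, 65.8% H4K8ac and 77.6% H4K8bu islands in spermatocytes, and 12.3%, 1.88% and 4.52% did in round spermatids. Of round-spermatid-only blocks, 81.3%, 36.3% and 75.9% held them in round spermatids, and 2.90%, 1.77% and 10.5% did in spermatocytes. At least 1 other mark was called in the stage without H4K5ac in 14.8% of spermatocyte-only and 12.7% of round-spermatid-only blocks. In the former it was H4K5bu in 1975 of 2374 blocks, and in the latter H4K8bu in 1122 of 1359. Over shared blocks, 82.3% held H4K5bu, 80.5% H4K8ac and 93.7% H4K8bu islands in spermatocytes, and 94.3%, 80.6% and 91.2% did in round spermatids. Merging blocks, which were longer, held each of the 3 marks in 94.6% or more in both stages. Lists of 1 stage were made against the same input library, so these calls are not independent.

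The other marks gave these values when measured in the same way. The widening of H4K5ac in pairs was the largest of the 4 marks, 0.34 (log2) against 0.25 for H4K8bu, 0.10 for H4K8ac and 0.08 for H4K5bu. Its splitting blocks were the fewest, 0.946% of shared blocks against 2.00% to 2.93%. Merging was of like frequency, 6.60% against 5.20% to 6.61%. Its fold ratio of -0.24 lay between those of H4K5bu (-0.09) and H4K8ac (-0.43). With 1 library per mark and stage, none of these differences could be tested.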

How the data were processed

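Islands of H4K5ac in spermatocytes and round spermatids (1 ChIP library each) were compared on chromosomes 1 to 19. Per the submitters' processing notes in the labels, CASAVA 1.8.2, Bowtie2 2.2.5, deepTools 1.5.11 and SICER were used with build mm9. Their settings are not given in the sources used here. Per island, the deposited lists hold counts of ChIP and input reads, a p-value, a fold ratio (ChIP over input reads, scaled by a factor of the list, which 1 island with 0 input reads did not follow) and a q-value below 0.01. The smallest gap within a list was 800 bp.

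Islands sharing at least 1 bp were joined into blocks, and reads were summed per stage and block (Python 3.11.15, pandas 2.3.3, scipy 1.17.1). The script was tested on simulated data. Intervals were exact (Clopper-Pearson), conditional binomial for a fold, or from order statistics for a median. Reads carry no molecular identifiers and are not independent molecules, so intervals of a share or a fold cover counting error only. Library totals are not analysed here.

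Regions were named by a rule: the 3 widest islands per stage, the 3 islands of each stage alone with most ChIP reads among those with a fold of at least the median of their list, the 3 blocks with most merging or splitting, the 3 highest and lowest fold ratios, the 3 longest runs per kind and the 2 fullest windows per kind. Members, rule and measures were chosen with earlier results of these data known. The quintiles of windows and the dip of the fold were described after seeing the data. The annotation at hand is of another build, so no genes or sequences are given. The quintiles of islands, the rankings of windows, the nearly equal extents, the gap classes and the other marks in blocks past 2-fold were likewise added after seeing the data. Alternatives were other overlaps, thresholds, gaps, scalings and dense input.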

Additional observations from a re-analysis of the deposited data

Results flagged for a closer look

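The comparison left out the sex chromosomes, where H4K5ac islands were also listed. X held 755 islands in spermatocytes, with a median fold of 8.39, and 1271 in round spermatids, with one of 5.50. Y held 31 and 45 islands, with median folds of 3.70 and 4.05.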

How the results depend on the processing

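Of 52 values under alternatives, 33 stayed within the 95% interval (or within 1.5 times, for counts), 19 moved and 0 reversed. Shares and counts cannot change sign, and the turned order of the stages given below is not counted as a reversal. With the upper 50% of each list by fold, 52.2% of spermatocyte and 60.6% of round spermatid islands were shared, pairs widened by 0.22 (log2), the ratio of folds was -0.55, merging blocks numbered 362 and splitting blocks 90, and the next block was of the same kind in 41.0% (spermatocyte-only, 36.4% of blocks) and 35.1% (round-spermatid-only, 25.2% of blocks). With lists of equal length by fold, 60.4% of round spermatid islands were shared, against 63.1% of spermatocyte islands, so the order of the stages turned. This cut left out only spermatocyte islands, those of lowest fold. The widening was then 0.31, the ratio of folds -0.42 and the next block the same in 33.7% (27.1% of blocks) and 39.8% (29.1% of blocks). With islands under 2 kb apart joined, the widening was 0.32, splitting blocks numbered 120 beside 1131 merging ones, and the next block was spermatocyte-only in 35.3%. The ratio of folds was -0.29 from ChIP reads per kb alone, scaled by list totals. Added after seeing the data, pairs sharing at least 80% of their bases gave -0.37 (6605 pairs), and -0.39 without input. Under scaling by list totals, the pooled ratio over all islands follows from the covered bases alone, 149 and 182 Mb. The level of the 2 values without input is therefore no separate measure of enrichment. An overlap of at least 50% of the shorter island, a fold of at least 2 and leaving out the densest 1% of islands by input moved nothing past these limits. No paired analysis was possible because each stage had 1 library with no replicate number, and for the same reason no library could be left out. Depth limits single islands most: the median spermatocyte-only island rested on 64 ChIP and 24 input reads.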
